A study of Arabidopsis thaliana with 6 samples.

Results

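The genes described here encode the proteins of the plastid ribosome, and they lie in both the nucleus and the plastid. They were taken from a list of 57 genes, 39 nuclear loci and 18 rps and rpl genes of the plastid genome, and a member was used where a probe set carried that gene and no other. This left 24 genes, 9 of the nuclear and 15 of the plastid genome, among the 22746 probe sets of the array. The other 30 nuclear loci could not be matched to a probe set by name and were not analysed here. The plastid genes rps7, rpl2 and rpl23, which lie in the inverted repeat and so have 2 copies each, sat on probe sets with 2 gene entries and were not used. Mitochondrial genes of the same names were kept out by their genome of origin. All 24 members passed the filter on low signals, with at least 51.2% of tested probe sets below them in mean signal.

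Plastids descend from cyanobacteria and keep a bacterial type of ribosome, which makes the proteins encoded by the plastid genome, among them core subunits of the photosystems, the ATP synthase and the large subunit of Rubisco. Its ribosomal RNAs and a minority of its proteins are encoded in the plastid. The remaining proteins are encoded in the nucleus, made in the cytosol and imported, so that each ribosome joins products of both genomes. By name, rps genes encode proteins of the small subunit, which reads the messenger RNA, and rpl genes those of the large subunit, which forms the peptide bonds. The nuclear members are known here only by locus, and which protein each encodes is given neither by the files nor by the annotation used.

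Transcript signals came from Affymetrix ATH1 arrays of whole Arabidopsis thaliana seedlings, 2 arrays in each of 3 groups, in a study of nuclear gene expression when chloroplast division is inhibited. All seedlings were 14 days old, had 4 rosette leaves, were grown in constant light and carried a T-DNA. Controls (background Ler-0 in the labels) carried PER-10, the empty vector, and were sprayed with 2 µM 17-B-estradiol, the inducer, on day 13, with harvest 24 h later. Temporal induction seedlings (background Ler-1) had the same single spray and interval. Prolonged induction seedlings (also Ler-1) grew from sowing on medium holding 2 µM inducer, with a further spray each 24 h. The inducer of both induced groups is written 7-B-estradiol in the labels. No source used here names the transgene that inhibits division, and induced lines without inducer were not among the groups, so a constant difference between the lines and a response to the inducer cannot be told apart. Nothing in the labels says that the 2 arrays of a group came from separate cultures, so p-values measure how far these samples scatter, and that scatter may be technical.

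Median signals of the arrays lay between 53.0 and 58.7. As a measure of RNA quality, the actin control gave 3' over 5' ratios of 6.14 and 4.45 with prolonged induction. They were 4.19 and 4.19 in controls and 3.19 and 5.22 with temporal induction. Over all arrays GAPDH gave 1.82 to 2.67 and ubiquitin 1.58 to 1.87, each highest on a prolonged array. Signals for 25S ribosomal RNA were 1026 and 1674 with prolonged induction, against 2701 and 4532 in controls and 2994 and 1222 with temporal induction. The part of these differences in the results was not tested. Both leaf and root transcripts were present, as the label of whole plants says: the 2 measured leaf genes (RCA and PRK) summed to 10648 to 17589 per array and the 3 measured root genes to 2679 to 4813. A lower signal from such bulk tissue can come from fewer cells of a type or from less RNA per cell, and these cannot be told apart. One-cycle labelling starts from poly(A) tails, which most plastid transcripts lack, so signals of plastid genes need not follow plastid transcript levels.

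Seedlings kept on inducer from sowing were first set against the controls. Of the 9 nuclear members 8 fell and 0 rose, at an adjusted p under 0.05 in limma over all 15922 tested probe sets, of which 3.18% fell and 3.77% rose. The median log2 fold change of the 9 was −0.85, or 55.3% of the control level, against −0.019 over all tested probe sets. Among the 732 tested probe sets whose mean signal lay in the range of these 9 genes, 18.0% fell and the median was −0.068. Both prolonged arrays lay below both control arrays in 9 of 9 genes, as in 24.6% of all tested probe sets and 42.1% of those 732.

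AT1G29070 read 1088 and 1067 in the controls, 795 and 666 after temporal and 467 and 399 after prolonged induction. The 3 groups did not overlap, with the prolonged arrays lowest. Its mean went from 1077 ± 14.3 to 433 ± 48.4 (SD, n = 2 arrays each), a log2 fold change of −1.32 ± 0.14 (SE, limma adjusted p = 0.000398), the largest fall among the 24 genes. AT5G47190 read 716 and 722 in the controls, 510.1 and 517 after temporal and 382 and 341 after prolonged induction. Its groups were fully apart, and it fell by 1.00 on the log2 scale (SE 0.14), to 50.2% of control. AT4G01310 read 1185 and 1251 in the controls, 772 and 813 after temporal and 671 and 615 after prolonged induction. It fell by 0.92 (SE 0.13), again with no overlap between any pair of groups.

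AT1G64510 read 796 and 708 in the controls, 566 and 568 after temporal and 468 and 357 after prolonged induction, and it fell by 0.88 (SE 0.16). AT3G13120 read 1424 and 1057 in the controls, 841 and 800.4 after temporal and 683 and 675 after prolonged induction, and it fell by 0.85 (SE 0.15). In both genes the 3 groups were apart, although the control arrays of AT3G13120 differed more from each other than those of the other 8. AT3G54210 read 728 and 812 in the controls, 529.9 and 569 after temporal and 532 and 389 after prolonged induction. It fell by 0.76 (SE 0.17), while its induced groups overlapped.

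The smaller falls were those of AT4G17560 and AT5G65220. AT4G17560 read 553 and 511 in the controls, 474 and 494 after temporal and 327 and 371 after prolonged induction, and it fell by 0.61 (SE 0.14, limma adjusted p = 0.0287). AT5G65220 read 869 and 983 in the controls, 793 and 811 after temporal and 655 and 613 after prolonged induction, and it fell by 0.55 (SE 0.13, limma adjusted p = 0.0298). The groups were apart in both, with the temporal arrays nearer to the controls than to the prolonged arrays. AT2G43030, the one nuclear member that did not pass, read 1365 and 1194 in the controls, 1017 and 1044 after temporal and 1029 and 788 after prolonged induction (log2 fold change −0.50 ± 0.15 SE, limma adjusted p = 0.0747).

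**Figure D1:**
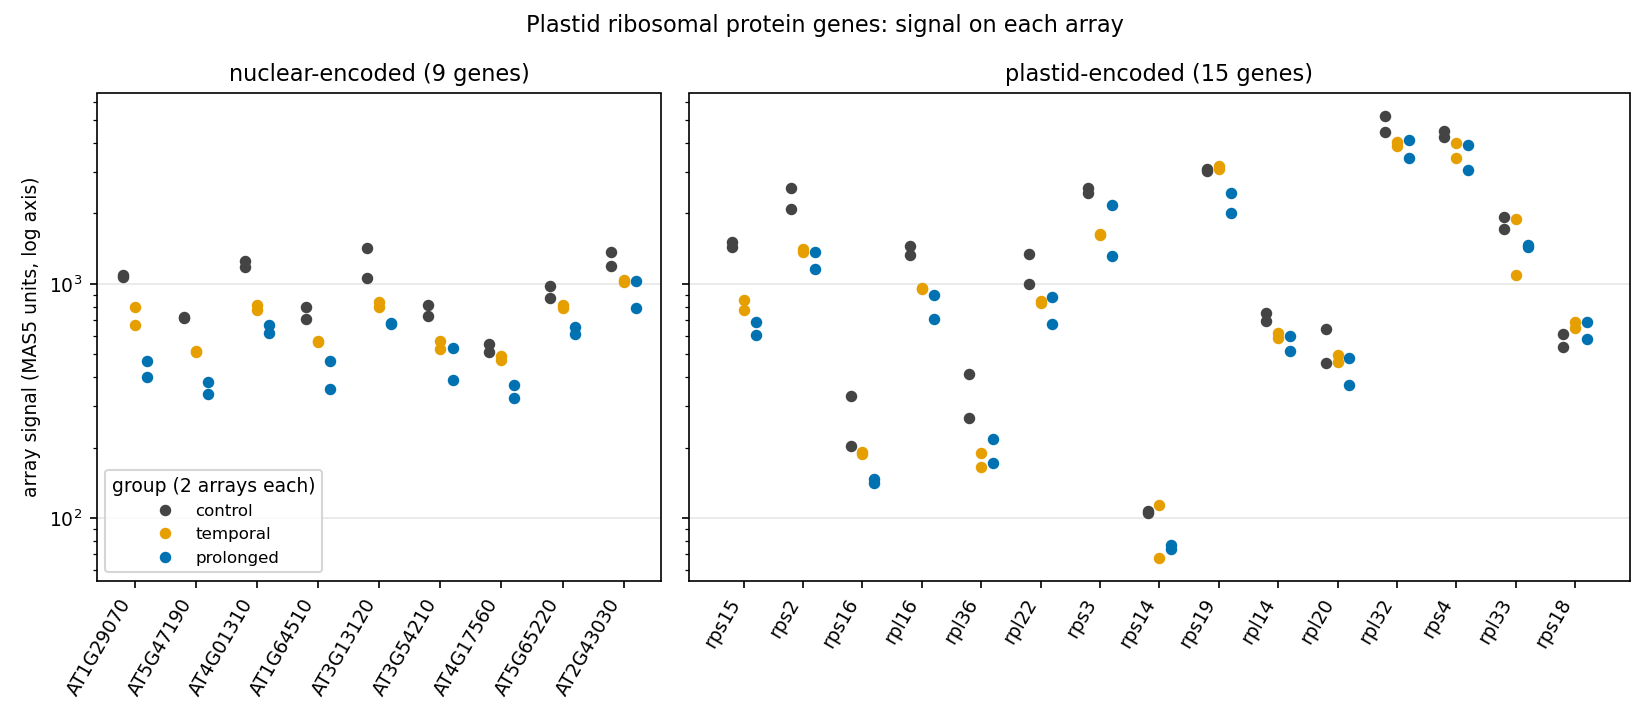
Signal on each of the 6 arrays (vertical log axis, MAS5 units) for the 9 nuclear-encoded and 15 plastid-encoded genes, ordered by their log2 fold change after prolonged induction; each point is 1 array, coloured by group. In the nuclear panel both prolonged arrays lie below both control arrays for 9 of 9 genes, and in the plastid panel for 13 of 15. This held for 24.6% of all tested probe sets and 42.1% of the 732 in the signal range of the nuclear genes.

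Among the 8 falls, those of AT1G29070, AT5G47190, AT4G01310, AT1G64510 and AT3G13120 passed in 15 of 16 alternatives to the processing, the exception being a variance prior without an intensity trend. AT3G54210 also failed after median centring and without control replicate 2 or prolonged replicate 2 (adjusted p up to 0.223). AT4G17560 passed in 8 of 16 and AT5G65220 in 7. Without control replicate 2 or after median centring 5 of the 9 genes fell, and without an intensity trend 0 did, where 47 of all tested probe sets passed.

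Temporal induction, set against the equally sprayed controls, asked how the transcripts stood 24 h after a single spray. Of the 9 nuclear members 1 fell and 0 rose, against 0.729% falls and 1.7% rises over all tested probe sets and 6.15% falls among the 732 of like signal. The gene was AT4G01310, which fell by 0.62 on the log2 scale (SE 0.13, limma adjusted p = 0.0283). Its call was lost after median centring, without an intensity trend, and without either control or either temporal array (adjusted p up to 0.351). The median over the 9 was −0.48, or 71.5% of control, beside a median of −0.0017 over all tested probe sets, and 6 of the 9 had an unadjusted p under 0.05, as did 6.51% of all tested probe sets on the lower side and 24.3% of the 732. Both temporal arrays lay below both control arrays in 9 of 9 genes, as in 23.6% of all tested probe sets and 40.4% of the 732. AT3G13120 and AT1G29070 had log2 fold changes of −0.58 ± 0.15 and −0.57 ± 0.14 (SE), and AT4G17560 had the smallest, −0.14 ± 0.14. Both inductions were read against the same 2 control arrays, so the responses share the error of those arrays.

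In the direct comparison of prolonged with temporal induction, the log2 difference itself uses no control array. Its p-values and confidence intervals do, because limma took the scatter from all arrays fitted together, the controls among them. In limma 0 of the 9 nuclear members and 0 of the 15 plastid members passed, where 0.0502% of all tested probe sets fell and 0.0377% rose. Of these 24 members, 8 had an unadjusted p under 0.05, all with the lower level after prolonged induction, as did 3.44% of all tested probe sets on that side. For AT1G29070 the log2 difference was −0.75 (95% confidence interval −1.07 to −0.43, limma adjusted p = 0.145), and for AT5G47190 it was −0.51 (95% confidence interval −0.81 to −0.21). The interval for AT2G43030 was −0.53 to 0.14. The median over the 9 nuclear genes was −0.34. In 7 of the 9 genes both prolonged arrays lay below both temporal arrays, as in 18.2% of all tested probe sets and 22.8% of the 732 of like signal. These same 7 had all 3 groups apart, with control highest, which held for 4.52% of all tested probe sets and 15.0% of the 732.

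**Figure D2:**
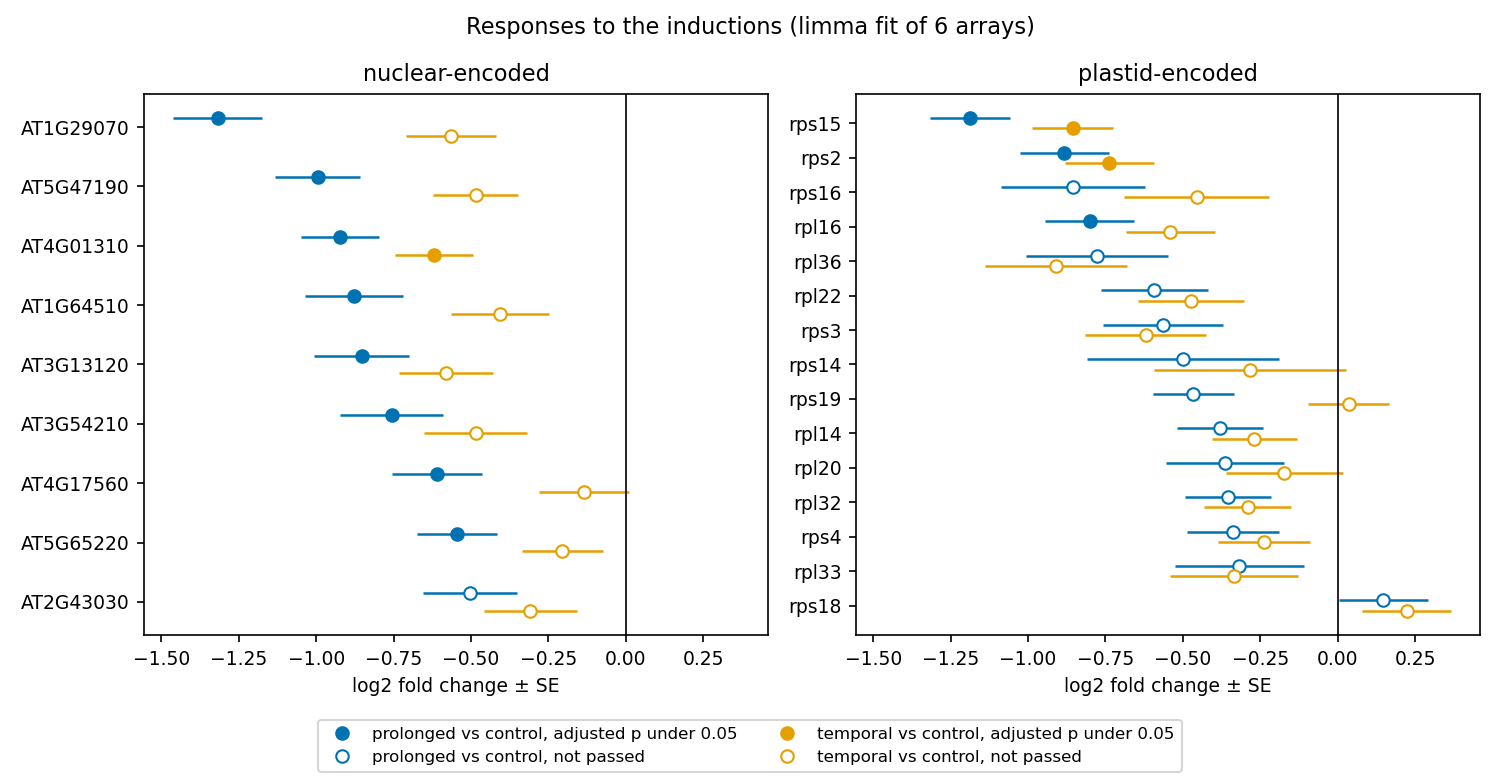
Log2 fold change (horizontal axis, bars are ± SE of the limma fit) of each gene after prolonged (blue) and temporal (orange) induction against the same 2 control arrays; filled points passed an adjusted p of 0.05. Of the nuclear-encoded genes 8 are filled for prolonged and 1 for temporal induction, and of the plastid-encoded genes 3 and 2. Of the 732 tested probe sets in the signal range of the nuclear genes, 18.0% fell after prolonged and 6.15% after temporal induction.

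Of the 15 plastid-encoded members 3 fell after prolonged induction and 0 rose, and the other 12 did not pass. The 3 that fell were rps15, rps2 and rpl16. Falls made up 3.18% of all tested probe sets and 18.0% of the 732 in the signal range of the nuclear members. No set of like signal was drawn for the plastid members, whose signals spread more widely. The median log2 fold change of the 15 was −0.50, or 70.7% of control. Both prolonged arrays lay below both control arrays in 13 of 15 genes, as in 24.6% of all tested probe sets and 42.1% of those 732. The 12 genes that did not pass had a median of −0.42. Of these 12, 8 had an unadjusted p under 0.05 in limma, as did 9.58% of all tested probe sets on the lower side and 214 of the 732. The count of falls was 5 without control replicate 2 and 0 without an intensity trend, while the 3 genes passed in the other 15 of 16 alternatives. After temporal induction 2 fell, rps15 and rps2, and 0 rose, where 0.729% of all tested probe sets and 6.15% of the 732 fell. The median over the 15 was −0.34. Both temporal arrays lay below both controls in 10 of 15 genes, as in 23.6% of all tested probe sets and 40.4% of the 732. They lay above both controls in 2 genes, as in 22.7% of all tested probe sets and 223 of the 732. The temporal count was 0 without either temporal array and 4 without either prolonged array.

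Among the small subunit genes, rps15 read 1439 and 1509.5 in the controls, 778 and 854 after temporal and 688 and 608 after prolonged induction. It fell after both, by 1.19 (SE 0.13, limma adjusted p = 0.000398) after prolonged and by 0.85 (adjusted p = 0.00695) after temporal induction, and its groups were fully apart. Its temporal call was lost without an intensity trend and without either temporal array (adjusted p up to 0.289). rps2 read 2575 and 2080.3 in the controls, 1367 and 1408 after temporal and 1367 and 1153 after prolonged induction. It fell by 0.88 and 0.74 (SE 0.14 for both, limma adjusted p = 0.00411 and 0.0232), and here the induced groups overlapped. The temporal call of rps2 was lost after median centring, without an intensity trend, and without control replicate 1 or either temporal array (adjusted p up to 0.340).

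rps16 read 333 and 204 in the controls, 192 and 188 after temporal and 142 and 146 after prolonged induction. Its groups were apart, but its control arrays differed widely, and it did not pass (log2 fold change −0.85 ± 0.23 SE, limma adjusted p = 0.0533), although it passed in 5 of 16 alternatives, without control replicate 2 among them. rps18 was the one member with a positive log2 fold change in both comparisons. It read 609 and 540.1 in the controls, 650.1 and 690.4 after temporal and 691 and 584 after prolonged induction (log2 fold change 0.15 ± 0.14 after prolonged induction, limma adjusted p = 0.635). The 8 measured small subunit genes had a median of −0.53 after prolonged and −0.37 after temporal induction.

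Further small subunit genes were chosen after their values were seen. rps19 read 3087 and 3046 in the controls, 3186 and 3100.2 after temporal and 2015 and 2445 after prolonged induction. Its temporal arrays thus stood just above the controls and its prolonged arrays below both other groups, and neither the comparison with control (limma adjusted p = 0.0592) nor the direct one of the inductions passed (log2 difference −0.50, 95% confidence interval −0.79 to −0.21, adjusted p = 0.48). rps3 read 2439.8 and 2574 in the controls, 1634 and 1626 after temporal and 2181 and 1318 after prolonged induction, so that its prolonged arrays lay on either side of its temporal arrays. Its log2 fold changes were −0.56 ± 0.19 and −0.62 ± 0.19 (SE), and without prolonged replicate 1 it passed in both comparisons. rps14, the dimmest member, read 105 and 108 in the controls, 67.3 and 114 after temporal and 73.9 and 76.9 after prolonged induction, and its temporal arrays lay on either side of the controls. The remaining gene, rps4, had log2 fold changes of −0.34 and −0.24.

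Among the 7 large subunit genes, rpl16 read 1459 and 1327 in the controls, 952 and 963 after temporal and 901 and 709 after prolonged induction. It fell after prolonged induction by 0.80 (SE 0.14, limma adjusted p = 0.00713), and after temporal induction its log2 fold change was −0.54 (adjusted p = 0.0857). The 3 groups of rpl16 did not overlap. rpl36 read 267 and 412 in the controls, 165 and 189 after temporal and 218 and 172 after prolonged induction. Its log2 fold changes were −0.78 and −0.91 (SE 0.23), neither of which passed, and without control replicate 1 both did. rpl22 read 1345 and 1004 in the controls, 825 and 849 after temporal and 882 and 674 after prolonged induction, and it did not pass either (log2 fold change −0.59 ± 0.17 SE, adjusted p = 0.0679).

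rpl33 had the smallest negative log2 fold change after prolonged induction, −0.32 ± 0.21 (SE). It read 1927 and 1712 in the controls, 1889 and 1097 after temporal and 1445 and 1471 after prolonged induction, with the temporal arrays far apart. rpl14, rpl20 and rpl32 had log2 fold changes of −0.38, −0.36 and −0.35 after prolonged and −0.27, −0.17 and −0.29 after temporal induction, and none of the 3 passed. The median of the large subunit genes was −0.38 after prolonged and −0.34 after temporal induction. The difference between the medians of the subunits was not tested.

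Plastid genes are commonly transcribed in clusters, so the members were also read in their order along the plastid genome, taken from the annotation. Of the 54 measured plastid genes that are not members, 4 fell after prolonged induction and 0 rose, where 3.18% of all tested probe sets fell. Their median log2 fold change was 0.0065. In 13 of the 54 both prolonged arrays lay below both controls, as in 24.6% of all tested probe sets. Beside rps2 lie rpoC2 and rpoC1, genes for subunits of the plastid's own RNA polymerase. rpoC2 had a log2 fold change of −1.35 ± 0.14 and rpoC1 one of −0.90 ± 0.17 (SE), and both fell, though not without an intensity trend and, for rpoC1, not without prolonged replicate 2 (adjusted p = 0.0636). On the other side of rps2 lies atpI, for a subunit of the ATP synthase, with 0.18 ± 0.39. rps15 is the last gene of the order, and its measured neighbour ndhH, for a subunit of the NDH complex, had 0.11 ± 0.45.

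A run of 6 measured members, rps19, rpl22, rps3, rpl16, rpl14 and rpl36, has rpoA, a further polymerase subunit gene, at its rpl36 end. Their log2 fold changes after prolonged induction were −0.47, −0.59, −0.56, −0.80, −0.38 and −0.78, and that of rpoA was −0.82. Both prolonged arrays lay below both control arrays in each of these 7 genes, but only rpl16 and rpoA passed. The same held for 24.6% of all tested probe sets and 42.1% of the 732 in the signal range of the nuclear members. Without an intensity trend neither rpl16 nor rpoA passed (limma adjusted p = 0.185 and 0.161). In the run of rpl33, rps18 and rpl20, by contrast, the values were −0.32, 0.15 and −0.36, and rps18 differed in sign from both neighbours.

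**Figure D3:**
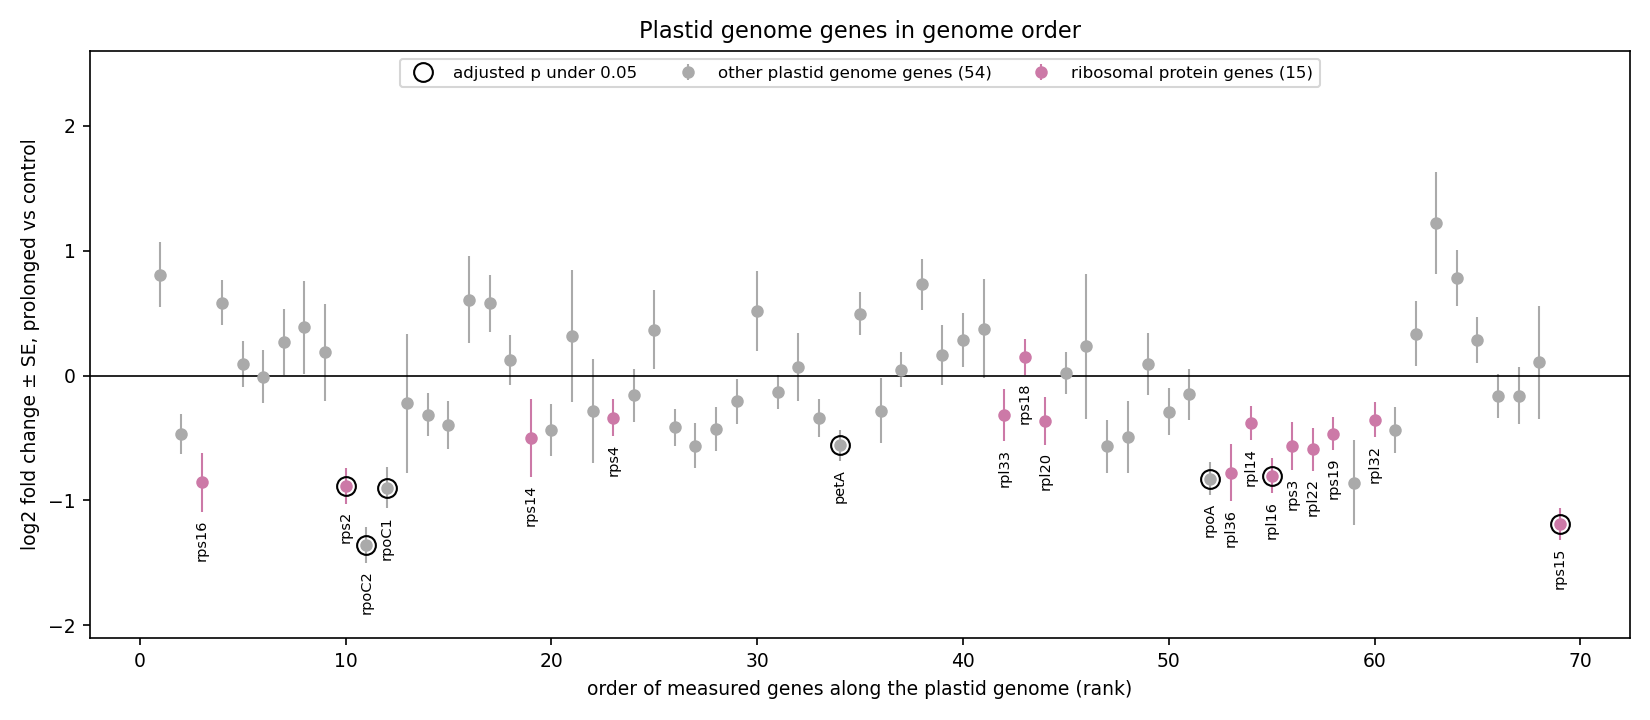
Log2 fold change after prolonged induction (vertical axis, bars are ± SE of the limma fit) of the 69 measured plastid genome genes in their order along the genome (horizontal axis, rank without distances); ribosomal protein genes are coloured and ringed points passed an adjusted p of 0.05. Of the 15 coloured points 14 lie below 0, as do 27 of the 54 others and 51.5% of all tested probe sets. In the 54 others the 2 control arrays differed by a median log2 difference of 0.69.

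The nuclear and plastid parts were then set side by side on each array, as the median log2 difference of their genes from the control mean. The nuclear genes stood at −0.44 and −0.43 on the temporal arrays and at −0.70 and −0.98 on the prolonged arrays. The plastid genes stood at −0.44 and −0.45 on the temporal and at −0.40 and −0.55 on the prolonged arrays. The nuclear minus plastid difference was thus 0.0016 and 0.020 on the temporal arrays and −0.30 and −0.43 on the prolonged arrays, with −0.055 and 0.055 on the controls. On the temporal arrays the parts stood level, and on both prolonged arrays the nuclear part stood lower. The control values mirror each other because they are taken from their own mean, so they do not give the error of that mean. All induced arrays share that error. Because the genes were chosen with earlier results known, no p is given for this difference.

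The same difference between the medians of fitted log2 fold changes was −0.35 for prolonged and −0.15 for temporal induction against control. The first ranged from −0.43 to −0.30 when 1 array was left out, and from −0.39 to −0.34 over the other alternatives. The second turned to 0.020 without temporal replicate 1 and to 0.0016 without temporal replicate 2, so its sign was not fixed. Leaving out 1 of the 2 arrays of an induced group returns the value of the other array. The limits of −0.43 and −0.30 and the values of 0.020 and 0.0016 thus repeat the differences given above for each array. In the direct comparison of the inductions the medians were −0.34 for the nuclear and −0.12 for the plastid genes.

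The plastid ribosomal protein genes also differed from the other plastid genes in how well the control arrays matched. Control replicate 1 exceeded replicate 2 by a median log2 difference of 0.69 over the 54 other plastid genes, with 49 of them higher in replicate 1. Over the 15 members the median was 0.14 and 10 were higher in replicate 1, and over the 9 nuclear members it was 0.027. Against the control mean, the median of the 54 others was 0.34 and −0.34 on the control arrays and 0.059 and −0.15 on the prolonged arrays. How these 54 compare with the members after prolonged induction therefore depends on which control array is read. The median of the plastid members after prolonged induction ranged from −0.55 to −0.40 with 1 array left out.

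**Figure D4:**
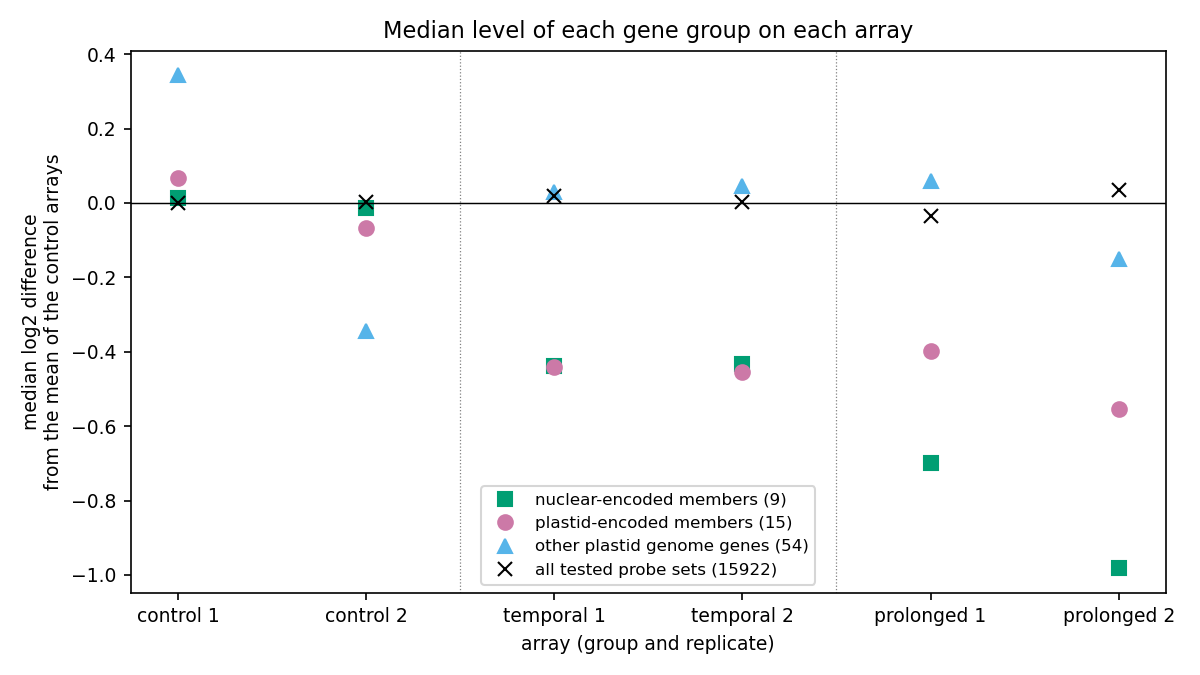
Median log2 difference from the mean of the 2 control arrays (vertical axis) on each array (horizontal axis) for the nuclear-encoded and plastid-encoded members, the 54 other plastid genome genes and all 15922 tested probe sets. The nuclear squares and plastid circles coincide on the temporal arrays at −0.45 to −0.43, and on the prolonged arrays the squares lie lower, at −0.70 and −0.98.

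Other genes of plastid gene expression were read from further lists, most of whose loci carried no name on the array. Of 11 genes for plastid translation factors 4 were measured, of which 1 fell and 0 rose after prolonged induction and 0 passed after temporal induction, with medians of −0.21 and −0.37. Over all tested probe sets 3.18% fell and 3.77% rose after prolonged induction. The gene that fell was AT4G11175, which read 446 and 331 in the controls, 221 and 241 after temporal and 209 and 188 after prolonged induction. Its fall was 0.96 (SE 0.19, limma adjusted p = 0.0122). It did not pass without control replicate 1 or prolonged replicate 2 (adjusted p = 0.0969 and 0.0668), or without an intensity trend (0.161). FUG1 (AT1G17220), for a plastid initiation factor of translation, read 524 and 697 in the controls, 553 and 525 after temporal and 630.0 and 426 after prolonged induction, and its groups overlapped. AT4G30690 of the same list lay the other way: it read 38.1 and 118 in the controls, 138 and 153 after temporal and 163 and 144 after prolonged induction, with both induced groups above the controls. Its log2 fold changes were 1.19 after prolonged and 1.12 after temporal induction (SE 0.42), neither of which passed (limma adjusted p = 0.132 and 0.233). Of the 4 polymerase subunit genes of the plastid 3 fell after prolonged induction, beside the same 3.18% of all tested probe sets. The fourth, rpoB, read 203 and 76.1 in the controls and 113 and 101 after prolonged induction.

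Of 8 nuclear genes for plastid transcription, 1 had a probe set, which was left out as too dim, and of 11 for ribosomal RNA processing and assembly 0 had one. Of 5 nuclear genes for mitochondrial ribosomal proteins 2 were tested and 0 passed in limma, while 2 had an unadjusted p under 0.05 after prolonged induction and 0 after temporal induction. On the lower side 9.58% and 6.51% of all tested probe sets had such a p in these comparisons. HLL (AT1G17560), which encodes a protein of the mitochondrial ribosome, read 126 and 99.2 in the controls, 111 and 118 after temporal and 61.6 and 62.1 after prolonged induction (log2 fold change −0.86 ± 0.27 SE, limma adjusted p = 0.0895).

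Markers of tissues differed between the groups as well. The 2 of 4 leaf genes that were measured, RCA (Rubisco activase) and PRK (phosphoribulokinase), both fell after prolonged induction, PRK in 15 of 16 alternatives but RCA in 6 (adjusted p up to 0.268). Of all tested probe sets 3.18% fell, and of the 732 in the signal range of the nuclear members 18.0% did. The summed signal of RCA and PRK was 16014 to 17589 in control, 13202 to 13373 in temporal and 10648 to 11968 in prolonged arrays. The 3 of 5 measured root genes summed to 4172 to 4813, 3698 to 3784 and 2679 to 3872 in the same order, and 0 of them passed. In limma 3 had an unadjusted p under 0.05 after prolonged induction, as did 9.58% of all tested probe sets on the lower side. PYK10 (AT3G09260) made up most of each sum and stood at 73.2% of control after prolonged induction. EXPA7 (AT1G12560) stood at 39.0% and EXPA18 (AT1G62980) at 26.3%, with EXPA18 at 24.1 and 11.5 on the prolonged arrays, near the filter on low signals. The 3 of 4 measured anther and pollen genes summed to 31.3 to 36.3 in control, 89.5 to 108.7 in temporal and 105.8 to 142.3 in prolonged arrays. One of them, ATA27 (AT1G75940), read 3.98 and 20.5 in the controls, 75.0 and 69.7 after temporal and 89.7 and 116 after prolonged induction. It passed the filter on low signals only through the induced groups, so no test is given for it, and none of these markers was at 0. The part of such differences in the values of the ribosomal protein genes was not tested.

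**Figure D5:**
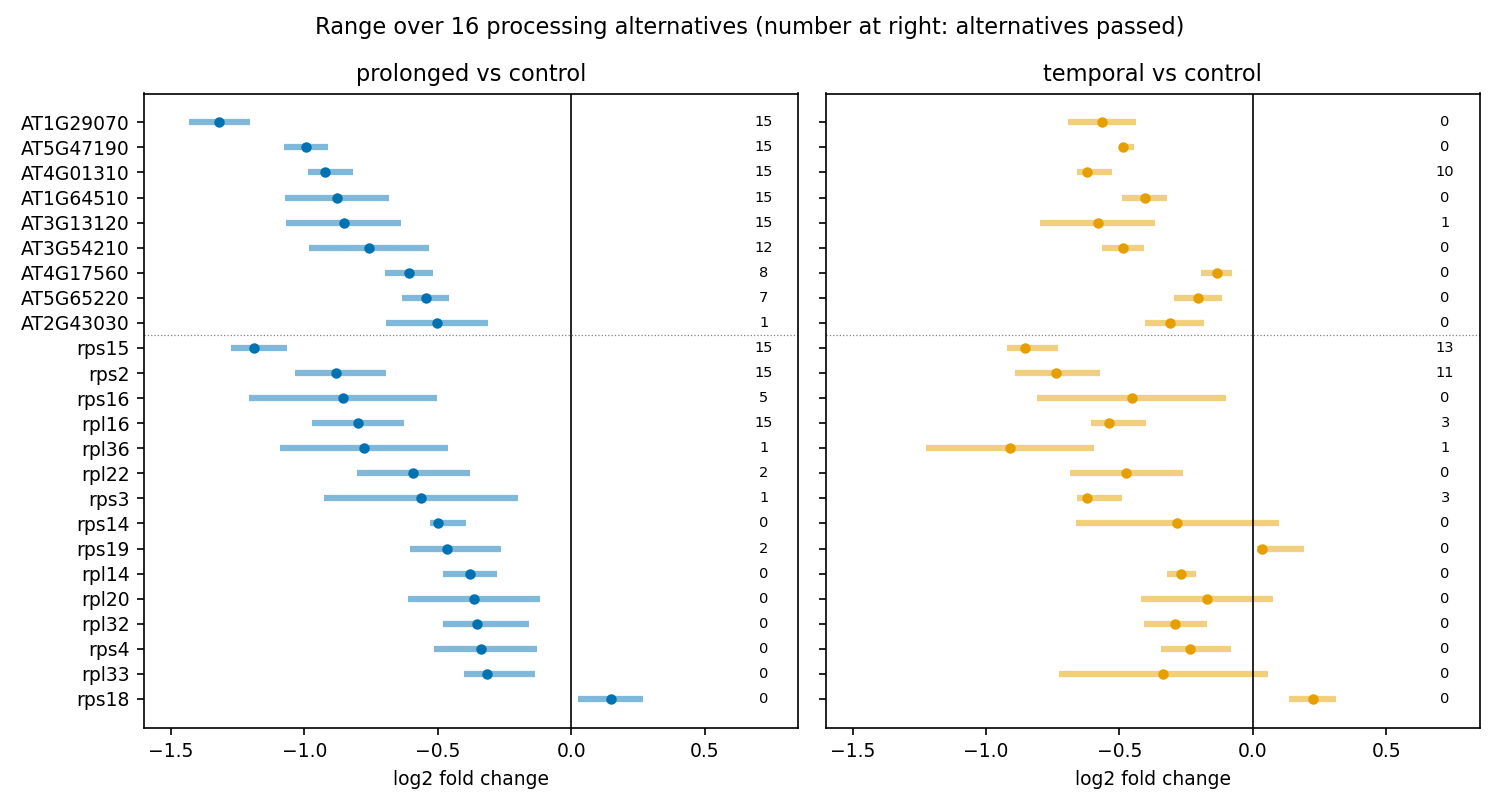
Log2 fold change of each of the 24 genes against control (horizontal axis) for prolonged and temporal induction; the point is the value reported, the bar spans the values over 16 alternatives to the processing, and the number at the right counts the alternatives in which the gene passed. After prolonged induction 5 nuclear and 3 plastid genes passed in 15 of 16, and the bar of no gene crosses 0, while after temporal induction the bars of rps14, rpl20 and rpl33 do.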

How the data were processed

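The deposited values are array intensity on a linear scale, which the submitters' processing notes link to MAS5 and GCOS, with no versions given in the sources used here. All arrays share a trimmed mean of 100.01. Image files and detection calls were not analysed here. After log2 transformation, the 64 array controls and the dimmest 30% of probe sets (geometric mean under 23.5) were dropped; this basis of the filter was taken over the linear mean after the counts under both had been seen. For the remaining 15922, limma 3.58.1 (R 4.3.3) fitted the 6 arrays together, with an intensity trend (3 residual and 7.96 prior degrees of freedom) and Benjamini-Hochberg adjustment over all of them. With 2 arrays a group, their number limits precision, and the median SE of a log2 fold change was 0.32. MAS5 subtracts mismatch probes, which widens the spread of dim probe sets. Names came from the platform annotation, matched by gene ID to TAIR10.1, which served for names and gene order only, so no coordinates are given. The members and lists were chosen with earlier results of these data known. Genes named with all their signals were the members that passed and, of those that did not, the 3 largest and 2 smallest changes of each part by size of log2 fold change after prolonged induction; rps19, rps3 and rps14 were chosen after their values were seen. A planned list of cytosolic ribosomal proteins matched 0 probe sets by name and was not used. In simulated data of 15922 probe sets for the comparison of prolonged induction with control, 37% of genes changed by 1 log2 unit were found. Of those changed by 2, 79% were found, and 6 of 122 calls were false. The simulated noise was normal, with an SD set by signal alone, which the fitted trend assumes. The false share therefore need not hold for the real arrays. Changed genes were drawn from all tested probe sets, so the shares found are not those of the members. Figures used matplotlib 3.10.9.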

Additional observations from a re-analysis of the deposited data

How the results depend on the processing

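Alternatives changed the normalization (quantile, median centring, cyclic loess), the filter (none, or 50% dropped), the variance prior (no trend), the samples fitted (2 groups, or 1 array fewer), an offset added to signals, or used replicate numbers as a block. No member had several probe sets, so the choice among them was not run. Over all tested probe sets 1107 passed for prolonged and 386 for temporal induction and 14 between the inductions. Without an intensity trend these were 47, 0 and 0, and 0 members fell in any comparison. Filtering on the linear mean, an alternative chosen after seeing the data, gave 1114, 397 and 14, with 8 nuclear and 3 plastid falls after prolonged induction. Median centring gave 249 for temporal induction, 5 nuclear falls for prolonged induction and, for temporal, 0 nuclear and 1 plastid. With the lowest 50% left out 5 plastid members fell after prolonged induction. The fit of 2 groups gave 24 between the inductions and 4 plastid falls for temporal induction. Quantile normalization moved the plastid median after prolonged induction to −0.37. With 1 array left out the counts over all probe sets were 633 to 897, 56 to 366 and 1 to 18. The first was 633 and 726 without prolonged replicates 1 and 2, the second 71 and 56 without temporal replicates 1 and 2, and the third 1 without either temporal array and 6 without prolonged replicate 2. Nuclear falls were 5 to 7 and plastid falls 3 to 5 after prolonged induction, and 0 to 1 and 0 to 4 after temporal induction. Nuclear medians were −0.98 to −0.70, −0.48 to −0.37 and −0.39 to −0.28 in the 3 comparisons, and plastid medians −0.55 to −0.40, −0.45 to −0.26 and −0.28 to −0.0035. Nuclear minus plastid differences were −0.43 to −0.30, −0.15 to 0.020 (0.0016 without temporal replicate 2) and −0.27 to −0.11. Signs of members that did not pass turned as well when 1 array was left out. For temporal induction against control, rpl33 ranged from −0.73 to 0.056, rpl20 from −0.42 to 0.074 and rps14 from −0.66 to 0.096. Between the inductions, rpl32 ranged from −0.19 to 0.062 (0.026 with cyclic loess), rpl33 from −0.37 to 0.41, rps18 from −0.20 to 0.045, rpl36 from −0.036 to 0.30, rps3 from −0.31 to 0.42, rpl22 from −0.31 to 0.076, rps14 from −0.60 to 0.16 and rps4 from −0.28 to 0.077 (0.0060 without temporal replicate 1). Same-numbered arrays did not deviate together (correlations of −0.060 to 0.012 across probe sets). With 2 arrays a group, this cannot show whether they shared a culture or a batch. With the replicate block 1046, 374 and 17 probe sets passed with 8 nuclear falls after prolonged induction, and rpl22 also passed (adjusted p = 0.0415). Where a cause is not named, the cause was not tested.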
